A study of Mus musculus with 14 samples.

Results

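The genes described here encode the proteins of the cytosolic ribosome. They were taken by symbol: every probe set whose annotation gave 1 symbol of the form Rpl or Rps followed by a number, or Rplp with a number, or Rpsa, was a member, and the Rps6k kinases were left out. This gave 49 probe sets for 35 genes, of 8251 genes with a single symbol on the array. Of the 35 genes, 17 belong to the large subunit and 18 to the small subunit by their symbols. A gene was represented by its probe set with the highest mean log2 intensity over the 14 arrays.

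A ribosome is made of a small subunit, which reads the messenger RNA, and a large subunit, which joins amino acids into protein. Each subunit is an RNA core carrying its own set of proteins, most of them strongly basic and present in a single copy, so their genes are usually expressed together and at high levels. Their messenger RNAs begin with a run of pyrimidines, the terminal oligopyrimidine (TOP) sequence, through which the mTOR pathway sets how much of them is translated. In the cerebellum, hedgehog signalling drives granule cell precursors to grow and divide, and growing cells need new ribosomes.

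RNA came from dissociated cerebellum of mice carrying 1 mutant copy of patched (patched+/-), the hedgehog receptor gene, kept by breeding with 129X1/SvJ mice. All 3 groups carry this allele, so there is no wild-type group. GCP are granule cell precursors of mice 7 days old (n = 4), pretumor are preneoplastic cells of mice 6 weeks old (n = 5), and tumor are cells of mice 10 to 25 weeks old with signs of medulloblastoma (n = 5). Cells were taken from the border between the 35% and 65% Percoll steps and were not sorted. Age and stage change together and cannot be told apart. The labels do not say that the numbered samples came from separate animals, so the spread between them may be partly technical.

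The median intensity of an array lay between 4.11 and 4.39. Intensities below 16 (log2 of 4) made up 70.5% of all values and are called the low band here. Of 9 measured precursor markers limma called Neurod1 and Pax6 lower in both later groups against GCP and 0 higher. Group means of Neurod1 were 12.83 ± 0.09 (SD, n = 4), 11.45 ± 0.40 (n = 5) and 11.58 ± 0.46 (n = 5), while those of Zic1, not called, were 12.74 ± 0.11, 12.59 ± 0.16 and 12.64 ± 0.21. The probe sets of Atoh1 and Gli1 lay in the low band on all arrays. The summed log2 level of the 9 markers ran from 13.9 to 14.2 in GCP arrays, 13.2 to 13.7 in pretumor and 13.3 to 13.8 in tumor arrays. GCP 1 and GCP 2 were more alike (r = 0.9977), as were GCP 3 and GCP 4 (r = 0.9975), than arrays across these pairs (r from 0.9939 to 0.9956, over all probe sets). The log2 ratio of 3' to 5' Gapdh signal was 0.461 and 0.558 in the first pair and -0.0179 and -0.0182 in the second. Calls against GCP of ribosomal protein genes, and of genes that work with the ribosome, are therefore also given with each pair averaged.

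Array signal of most cytosolic ribosomal protein genes above the low band differed little between precursors, preneoplastic cells and tumors. Array medians lay close together, so these levels are relative to other genes on the array, and RNA per cell was not measured. Of the 35 genes, 21 lay above the low band on all 14 arrays, 11 of the large and 10 of the small subunit, and the other 14 lay in the low band on all 14. Rpl13a rose against GCP in both later groups, by 0.85 and by 1.00 on the log2 scale. Read through its brightest probe set, no further gene outside the low band passed the test in any comparison. Rps4l was called lower against GCP in both, within the low band.

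The call rule was an adjusted p under 0.05 from limma, a linear model fitted to all 12422 probe sets with Benjamini-Hochberg adjustment. Among the 2708 genes above the low band on all arrays, 2.81% were called higher and 4.28% lower in pretumor against GCP, 3.29% and 4.95% in tumor against GCP, and 0.258% and 0.923% in tumor against pretumor. The 21 ribosomal protein genes gave 1 higher and 0 lower in each of the comparisons with GCP, and 0 of either between tumor and pretumor. By limma's unadjusted p under 0.05 the same counts were 3 higher and 0 lower, 2 and 0, and 0 and 1, beside 26.0%, 27.1% and 13.3% of the 2708 genes in either direction. Over all 35 members 1 was called higher and 1 lower in each comparison with GCP, beside 1.99% and 3.25% of all 8251 genes in pretumor and 1.70% and 3.93% in tumor. Between tumor and pretumor 0 of the 35 were called by limma, beside 0.133% higher and 0.957% lower of all genes, with 2 higher and 1 lower at an unadjusted p under 0.05, which 12.2% of all genes reached in either direction. The shares called at an adjusted p under 0.05 are near these backgrounds, and those counts set the family apart in neither direction. At limma's unadjusted p under 0.05 the 21 genes had a lower share than the 2708 genes in each comparison. This lower share was not tested.

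The size of the differences was small. Their median absolute difference was 0.11 in pretumor against GCP, 0.059 in tumor against GCP and 0.13 in tumor against pretumor, beside 0.21, 0.21 and 0.15 over all 2708 genes above the low band. In pretumor against GCP 19 of the 21 differed by less than 0.25, in tumor against GCP 19 and in tumor against pretumor 20. The 95% interval of the difference lay within 1 log2 unit of 0 in 20, 20 and 21 of the 21 genes. It lay within 0.5 of 0 in 16, 19 and 19. The arrays within a group also lay close together, with a median residual SD of 0.15 against 0.26 over all 2708. Among genes above the low band the brightest were less noisy. At a mean log2 intensity of 11 or more the median residual SD was 0.11 for the 16 ribosomal protein genes and 0.19 for all 178 genes. The limit of 11 was chosen after the values were seen.

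**Figure D1:**
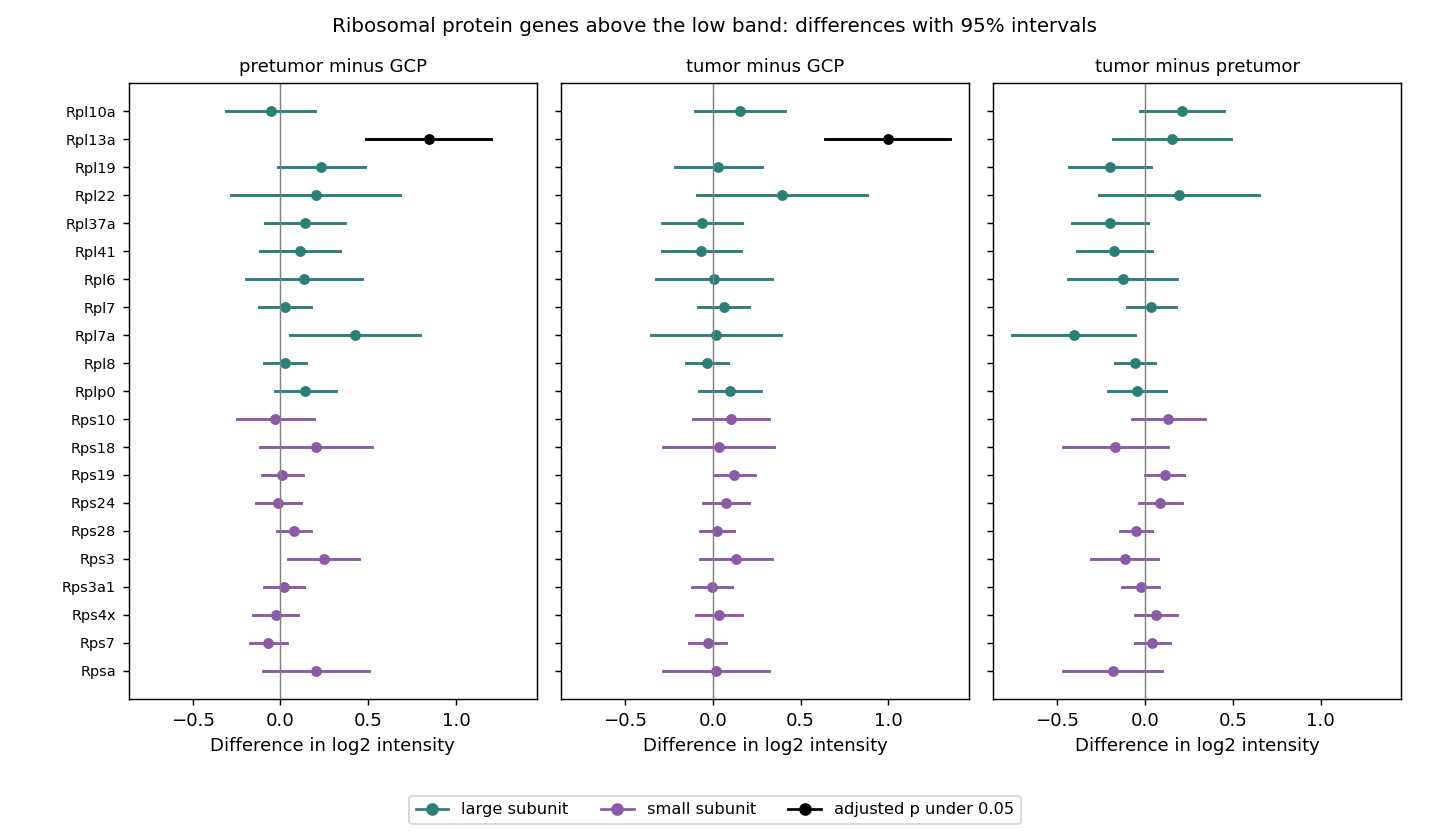
Difference in log2 intensity (horizontal axis) with its 95% interval for the 21 ribosomal protein genes above the low band, for each pair of groups (later minus earlier stage); points are limma estimates from 4, 5 and 5 arrays. Rpl13a, in black, lies at 0.85 and 1.00 in the comparisons with GCP, while most other genes lie within 0.25 of 0.

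Rpl13a encodes a large subunit protein that can also leave the ribosome after interferon-gamma and hold back translation of inflammatory messages, and its introns carry small nucleolar RNAs. Its probe set (92834_at) read 9.13, 8.92, 9.38 and 9.57 on GCP 1 to GCP 4. In pretumor 1 to pretumor 5 it read 9.87, 10.08, 10.13, 9.96 and 10.44, and in tumor 1 to tumor 5 it read 10.24, 10.64, 9.92, 10.17 and 10.27. Every later array lay above every GCP array, and the pretumor and tumor ranges overlapped. Rpl13a was 1.80-fold higher in pretumor than in GCP (difference 0.85, SE 0.16, limma adjusted p = 0.0119) and 2.00-fold higher in tumor (difference 1.00, SE 0.16, limma adjusted p = 0.00437). Tumor and pretumor differed by 0.15, with a 95% interval from -0.18 to 0.49 (limma adjusted p = 0.774).

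With each GCP pair averaged into 1 value, a setting chosen after seeing the data, the pretumor call of Rpl13a ended (limma adjusted p = 0.0878) and the tumor call held (limma adjusted p = 0.0407). Leaving out any 1 array ended neither call. In bulk samples fewer cells of a type and less RNA per cell cannot be told apart. The summed log2 level of 12 microglia and macrophage markers ran from 7.22 to 8.56 in GCP, 9.66 to 10.4 in pretumor and 9.3 to 10.9 in tumor arrays, so it moved with Rpl13a. Of those 12 markers only Ctss and Lyz2 were called, both higher in both comparisons, and 7 lay in the low band on all 14 arrays, among them Aif1, Cx3cr1 and Itgam. The summed astrocyte markers ran from 13.2 to 13.7 in GCP, from 10.2 to 10.9 in pretumor and from 8.78 to 10.9 in tumor arrays, and the endothelial ones from 6.45 to 6.94, 5.52 to 6.0 and 4.91 to 5.45. Of 7 astrocyte markers limma called 1 higher and 1 lower in pretumor, and 0 higher and 4 lower in tumor against GCP. Above the low band on all arrays lay 2 of these 7 and 0 of the 8 endothelial markers. The part of other cells in the Rpl13a result was not tested.

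The annotated start of Rpl13a is printed here beside those of other members above the low band, to show where their pyrimidine runs lie. Each line gives 30 bases from RefSeq (GRCm38.p6), 15 before and 15 after an annotated start, on the strand of the gene, with the longest run of C or T in capitals.
Rpl13a, chr7:45128731-45128760, minus strand: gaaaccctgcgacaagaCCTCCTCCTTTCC
Rpl7a, chr2:26910792-26910821, plus strand: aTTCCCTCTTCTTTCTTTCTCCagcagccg
Rps18, chr17:33955651-33955680, minus strand: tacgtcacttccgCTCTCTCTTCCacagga
Rpl10a, chr17:28328456-28328485, plus strand: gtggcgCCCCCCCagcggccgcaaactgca
Rpl10a, second start, chr17:28328550-28328579, plus strand: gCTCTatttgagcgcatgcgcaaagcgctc

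Within these 30 bases the runs are 13 bases in Rpl13a, 21 in Rpl7a, 11 in Rps18, and 7 and 4 at the starts of Rpl10a. The Rpl13a run reaches the last printed base and may be longer. In Rpl7a and Rps18 the run covers the start base. In Rpl13a the start base is not a pyrimidine and the run begins after it, and at both Rpl10a starts the run ends before it. RefSeq promoters were found for 28 of the 35 members, with 37 starts. A run of at least 8 C or T within 15 bases of the start was present at 11 of these 37 starts (29.7%) and at 3943 of all 32851 starts in the table. Searched on both strands over 250 bases before to 50 after each start, CTCGCGAG, which reads the same on both strands, was found at 4 of 37 member starts (10.8%) and 0.919% of all starts. AAGATGGCG, a form of the YY1 motif, was found at 6 (16.2%, against 1.4%), and CCGGAAGT, a form of the ETS motif bound by GABP, at 5 (13.5%, against 3.89%). None of these motifs contains another. Starts of 1 gene overlap in sequence, so they are not independent. These are matches of letters in a window and not measured binding.

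Rpl7a, with the longest run of those printed, encodes another large subunit protein. It read 10.67, 10.70, 10.85 and 10.70 in GCP, 11.65, 11.04, 11.19, 11.002 and 10.88 in pretumor, and 10.33, 10.62, 10.70, 11.12 and 10.96 in tumor arrays. Its pretumor arrays all lay above the GCP arrays, with pretumor 1 highest, and the tumor arrays spread across both. The differences were 0.43 in pretumor against GCP (95% interval 0.05 to 0.80, limma adjusted p = 0.235) and -0.41 in tumor against pretumor (-0.76 to -0.06, limma adjusted p = 0.347), and neither passed the test. In tumor against GCP Rpl7a differed by 0.02 (-0.35 to 0.39).

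Rpl10a, a protein of the mobile L1 stalk, was read by a pair of probe sets that did not give the same call. The brighter one, 161327_f_at, has the suffix f, which marks probes shared within a gene family. Its group means, from GCP to tumor, were 11.98 ± 0.12, 11.93 ± 0.19 and 12.14 ± 0.21, and the groups overlapped in every comparison. The other one, 100711_at, read 11.74, 11.71, 11.79 and 11.73 in GCP, 12.07, 11.94, 11.87, 11.89 and 12.01 in pretumor, and 11.90, 12.01, 11.82, 11.91 and 11.99 in tumor arrays. Both later groups lay wholly above GCP on this probe set. Its differences were 0.21 (SE 0.05, 1.16-fold, limma adjusted p = 0.024) in pretumor and 0.18 (SE 0.05, 1.13-fold, limma adjusted p = 0.049) in tumor samples against GCP. The pretumor call ended without any 1 of GCP 1, GCP 2, GCP 4, pretumor 2 or pretumor 5 (limma adjusted p = 0.0503 to 0.0738), and with GCP pairs averaged (0.19). The tumor call ended without any 1 of 11 of the 14 arrays, all but pretumor 1, pretumor 3 and tumor 3 (limma adjusted p = 0.0607 to 0.139), and with GCP pairs averaged (0.292).

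**Figure D2:**
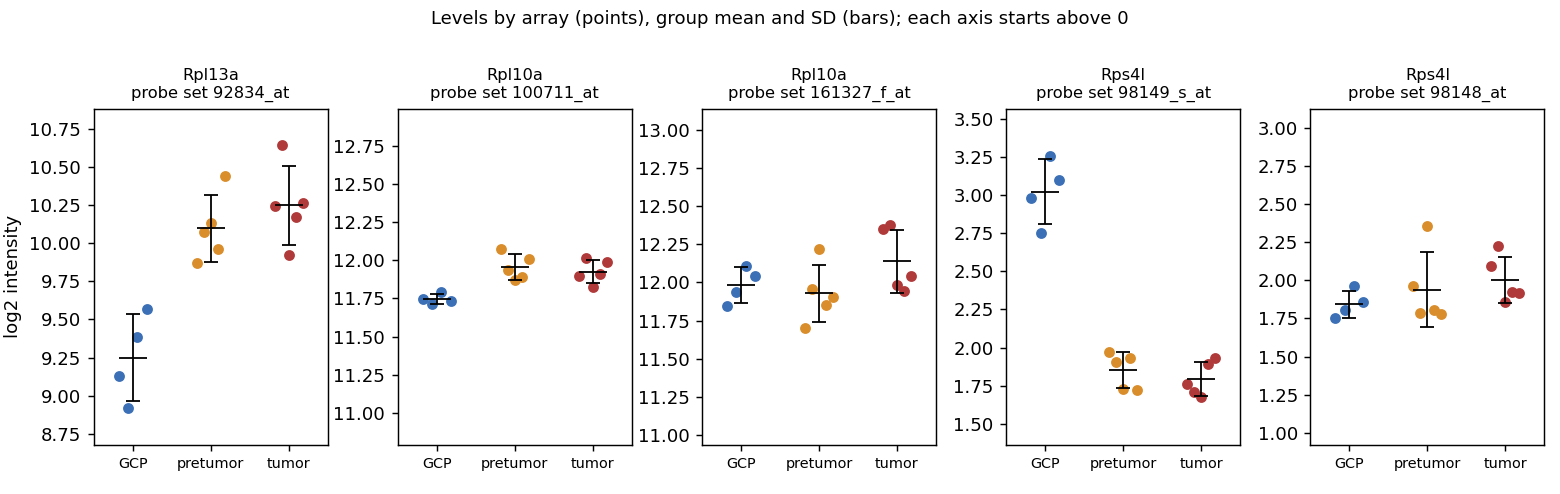
log2 intensity on each array (points) with the group mean and SD (bars) for Rpl13a and for both probe sets of Rpl10a and of Rps4l, in GCP (n = 4), pretumor (n = 5) and tumor (n = 5); each vertical axis starts above 0. The pretumor and tumor arrays lie above all GCP arrays for Rpl13a and for Rpl10a 100711_at, and below them for Rps4l 98149_s_at, while the other probe set of each of Rpl10a and Rps4l overlaps between groups.

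The remaining large subunit genes above the low band did not pass the test. Rplp0 forms the base of the stalk that recruits translation factors, and it stood at 14.34 ± 0.06, 14.48 ± 0.13 and 14.44 ± 0.15 in GCP, pretumor and tumor samples. Against GCP it differed by 0.14 (95% interval -0.03 to 0.32) and 0.10 (-0.08 to 0.27). The stalk proteins Rplp1 and Rplp2 had no probe set with a single symbol. A probe set shared between Rplp1 and Gm13777 stood at 10.13 ± 0.58, 10.65 ± 0.98 and 10.21 ± 0.93, a far wider spread than that of Rplp0. Rpl8, a protein at the centre where peptide bonds form, had the narrowest intervals among the representative probe sets of the large subunit above the low band. It stood at 12.91 ± 0.09, 12.93 ± 0.08 and 12.87 ± 0.08, and in tumor against GCP it differed by -0.04 (-0.15 to 0.08).

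Rpl19, which takes part in a bridge between the subunits, read 13.04, 13.01, 13.03 and 12.89 in GCP and 13.38, 13.42, 13.09, 13.12 and 13.12 in pretumor arrays. These groups did not overlap, but the difference of 0.23 did not pass the test (95% interval -0.01 to 0.48, limma adjusted p = 0.361). Its tumor arrays, from 12.74 to 13.27, covered both ranges. Groups without overlap were not rare on these arrays: 17.5% of the 2708 genes above the low band had none in pretumor against GCP, 12.9% in tumor against GCP and 2.99% in tumor against pretumor. Of the 21 ribosomal protein genes 4 had none in the first (Rpl13a, Rpl19, Rpl7a and Rps3), 1 in the second (Rpl13a) and 0 in the third.

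Rpl22, which binds RNA outside the ribosome as well and is dispensable for translation in many cells, lay close to the low band and had the widest residual spread of the 21 genes, 0.34. Its GCP and pretumor arrays lay from 4.70 to 4.92 and from 4.79 to 5.23, and its tumor arrays read 5.05, 4.41, 5.09, 5.79 and 5.54. Tumor 2 lay below every other array and tumor 4 above every other. The difference of 0.39 between tumor and GCP had a 95% interval from -0.09 to 0.88 (limma adjusted p = 0.466). Rpl6 likewise split within the tumor group, at 11.46 and 11.41 on tumor 1 and tumor 2, 11.82 on tumor 3, and 12.16 and 12.13 on tumor 4 and tumor 5, against 11.67 to 11.95 in GCP. Its group means were 11.79 ± 0.12, 11.92 ± 0.10 and 11.80 ± 0.36, so the means lay close while the tumor arrays did not. Rpl37a, Rpl41 and Rpl7 differed from GCP by 0.14, 0.11 and 0.03 in pretumor and by -0.06, -0.06 and 0.06 in tumor samples.

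In the small subunit 0 of 10 genes above the low band were called by limma in any comparison. An unadjusted p under 0.05 was reached by Rps3 in pretumor against GCP, by Rps19 in tumor against GCP and by 0 genes between the later stages. The widest 95% interval among them reached 0.52. Rps3, which sits at the entry of the messenger RNA and also takes part in DNA repair, read 12.77, 12.65, 12.67 and 12.69 in GCP, 13.10, 12.94, 12.79, 13.02 and 12.85 in pretumor, and 12.73, 12.59, 12.76, 13.04 and 13.01 in tumor arrays. The pretumor arrays lay above GCP without overlap, by 0.25 on average (95% interval 0.05 to 0.45, limma adjusted p = 0.195). Rps19, the gene most often mutated in Diamond-Blackfan anaemia, stood at 13.47 ± 0.08, 13.48 ± 0.09 and 13.59 ± 0.07, and its tumor difference of 0.12 did not pass the test (limma adjusted p = 0.297).

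Rps4x, Rps3a1 and Rps7 were steady from stage to stage. Rps4x, the X-linked S4 protein, stood at 14.19 ± 0.06, 14.16 ± 0.11 and 14.22 ± 0.09. Rps3a1 stood at 14.34 ± 0.09, 14.36 ± 0.06 and 14.33 ± 0.09, and Rps7 at 12.82 ± 0.03, 12.75 ± 0.04 and 12.79 ± 0.11. The tumor difference from GCP had 95% intervals from -0.09 to 0.16 for Rps4x, -0.12 to 0.11 for Rps3a1 and -0.13 to 0.08 for Rps7. Rps10, Rps18 and Rps28 differed from GCP by -0.03, 0.20 and 0.08 in pretumor and by 0.10, 0.03 and 0.03 in tumor samples.

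Rpsa, which also serves as a laminin receptor at the cell surface, read 8.98, 9.01, 9.12 and 9.18 in GCP and 9.15 to 9.41 in pretumor arrays. In tumor arrays it read 8.79, 8.88, 8.92, 9.35 and 9.51, with tumor 4 and tumor 5 above every GCP array and the other three below every one. Its differences from GCP were 0.20 (95% interval -0.10 to 0.51) and 0.02 (-0.28 to 0.32).

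Rps28 was read by several probe sets whose values differed. 98085_f_at stood at 14.20 ± 0.05, 14.27 ± 0.07 and 14.22 ± 0.07, and 100758_at at 13.12 ± 0.09, 13.37 ± 0.21 and 13.10 ± 0.16. On 100758_at the pretumor arrays lay above all GCP arrays (difference 0.25, limma adjusted p = 0.279) and tumor differed from pretumor by -0.27 (limma adjusted p = 0.309), so neither probe set was called. The probe set that represents Rps24, 97696_r_at, carries the same GenBank sequence as the Rpl7 probe set 97695_s_at in the annotation, so which gene it reads is uncertain. It stood at 14.67 ± 0.03, 14.66 ± 0.09 and 14.74 ± 0.11, while the other Rps24 probe set, 93121_at, lay in the low band.

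Rps4l, an S4-like copy of the Rps4x gene, was called lower in both later groups through 98149_s_at. It read 2.98, 2.75, 3.26 and 3.10 in GCP, 1.97, 1.91, 1.73, 1.94 and 1.72 in pretumor, and 1.76, 1.71, 1.67, 1.89 and 1.93 in tumor arrays. Every GCP array lay above every other array, with differences of -1.17 (SE 0.10, limma adjusted p = 4.65e-05) and -1.23 (SE 0.10, limma adjusted p = 2.91e-05). With GCP pairs averaged both calls held (limma adjusted p = 0.000815 and 0.000421). All of these Rps4l values lie in the low band, where background was not measured, so no fold is given, and with values floored at 16 nothing of the difference was left. The second Rps4l probe set, 98148_at, differed the other way by 0.10 (limma adjusted p = 0.827) and 0.16 (limma adjusted p = 0.628). The suffix s marks probes shared between transcripts.

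The other 13 genes in the low band gave no usable level. They were Rpl32, Rpl35a, Rpl38, Rpl39, Rpl39l and Rpl7l1 of the large subunit, and Rps13, Rps14, Rps15, Rps20, Rps27, Rps27l and Rps29 of the small subunit. Rpl39l, Rpl7l1 and Rps27l are paralogs of Rpl39, Rpl7 and Rps27, and Rps27l is induced by p53. The others are core ribosomal proteins, whose messages are abundant in growing cells. Of the 49 member probe sets 26 lay in the low band on all 14 arrays, and several genes had a probe set there and another far above it: Rpl19 at 13.09 and 1.76, Rpl7 at 13.75 and 1.48, and Rps4x at 14.19 and 1.82 as means over 14 arrays. Low values differed in this way between probe sets of the same gene and are not read as low expression here.

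To compare arrays, each gene was set against its own mean over 14 arrays and the median deviation was taken per array. The median over the 21 genes ran from -0.07 to -0.02 in GCP, from 0.002 to 0.11 in pretumor and from -0.09 to 0.14 in tumor arrays, while that over all 2708 genes ran from -0.01 to 0.05, from -0.11 to 0.08 and from -0.04 to 0.05. All 4 GCP arrays lay below all 5 pretumor arrays, and tumor arrays covered both ranges. The median over the 21 genes was highest on tumor 5 (0.14). By contrast, the summed log2 markers of some other cells reached their highest values in pretumor arrays. Of 3 choroid plexus genes limma called Kl higher in pretumor against GCP. The summed choroid plexus markers ran from 9.27 to 11.6 in GCP, 12.3 to 13.8 in pretumor and 3.84 to 10.2 in tumor arrays. Those of oligodendrocytes (8 genes) ran from 7.39 to 8.02, 7.87 to 9.09 and 6.8 to 7.39. Of the 8, limma called Mag, Mal and Mog higher in pretumor against GCP. Cnp, Mag, Mobp and Sox10 lay in the low band on all arrays. In pretumor against GCP 3 of the 8 had a difference below 0. The 2 genes above the low band on all arrays had a median difference of -0.27. The part of these other cells in the family's medians was not tested. Members of the family are not replicates, so no test is given.

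The medians of large and small subunit genes differed by 0.0157 to 0.204, by over 0.1 on 5 of 14 arrays (GCP 4, pretumor 1, pretumor 3, tumor 2 and tumor 4), and had opposite signs on 5. On GCP 4 the large subunit lay at -0.14 and the small subunit at 0.005, and on tumor 2 at -0.15 and 0.05. The large subunit medians ran from -0.14 to -0.04 in GCP, from -0.05 to 0.15 in pretumor and from -0.15 to 0.17 in tumor arrays. Those of the small subunit ran from -0.08 to 0.005, from -0.009 to 0.04 and from -0.11 to 0.11. In pretumor against GCP 10 of 11 large and 6 of 10 small subunit genes had a difference above 0, with medians of 0.14 and 0.017. In tumor against GCP the medians were 0.031 and 0.035, and they turned to -0.009 and -0.006 when arrays were centred on the median of bright probe sets, so no direction is read for the tumors.

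**Figure D3:**
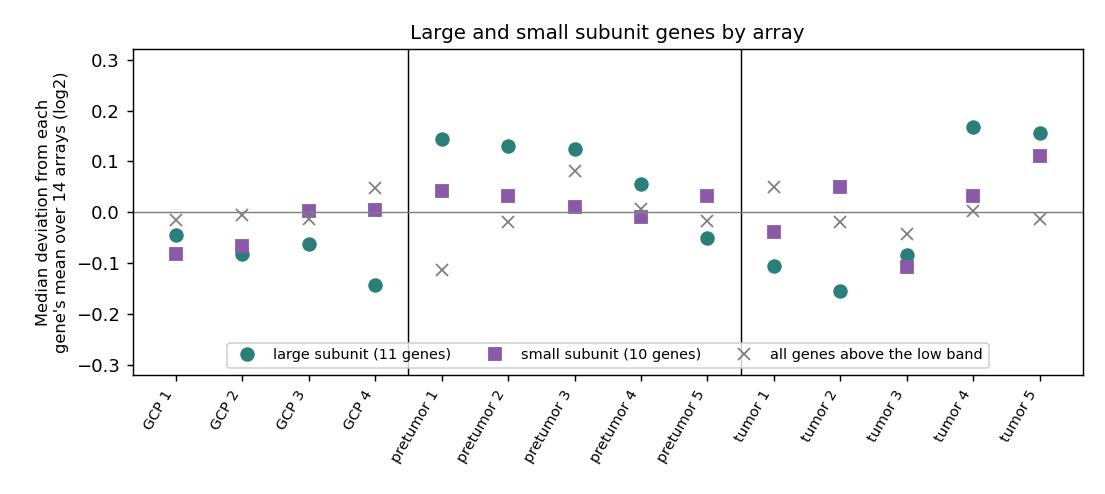
Median deviation of the 11 large subunit genes, the 10 small subunit genes and all 2708 genes above the low band from each gene's mean over the 14 arrays (vertical axis, log2 units), for each array. The large subunit medians lie at 0.12 to 0.15 on pretumor 1 to pretumor 3 and range from -0.15 on tumor 2 to 0.17 on tumor 4.

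Within the tumor group the arrays divided. Above their own group mean lay 15 of the 21 genes on tumor 4 and 18 on tumor 5, but 6 on tumor 1, 9 on tumor 2 and 2 on tumor 3. Rpl6, Rpl22 and Rpsa were highest on tumor 4 and tumor 5. Rpl10a 161327_f_at ran the other way, at 12.35 and 12.37 on tumor 1 and tumor 2 and 11.98, 11.94 and 12.04 on tumor 3 to tumor 5. In pretumor the counts ran from 6 of 21 on pretumor 4 to 13 on pretumor 1, and in GCP from 4 on GCP 2 to 16 on GCP 3. The 3' to 5' Gapdh ratio ran from 0.151 to 0.419 over the tumor arrays, where it was 0.419 and 0.348 on tumor 4 and tumor 5 and 0.391 on tumor 3, and from 0.00563 to 1.08 over the pretumor arrays. Its part in these deviations was not tested.

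**Figure D4:**
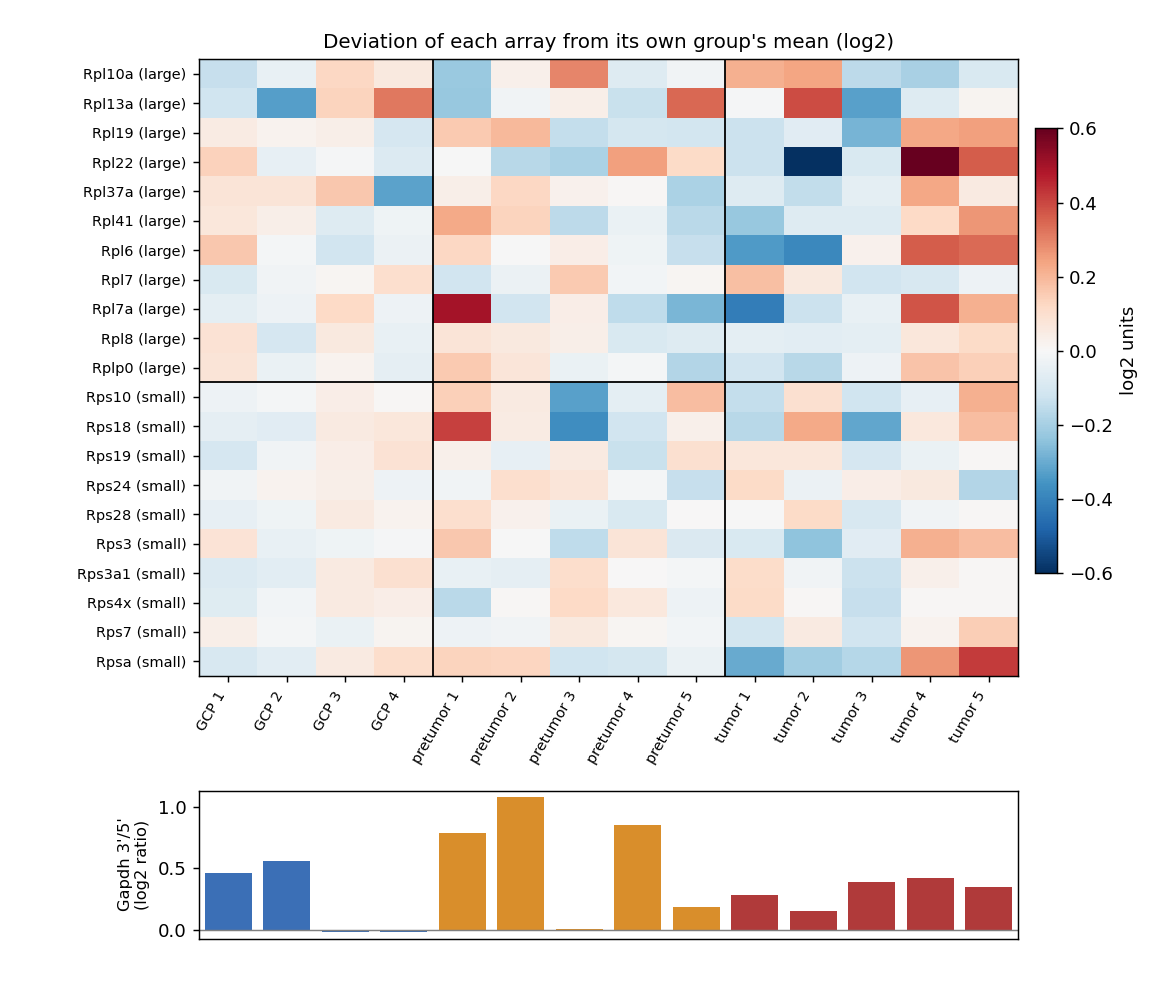
Upper panel: deviation of each array from the mean of its own group (colour, log2 units) for the 21 ribosomal protein genes above the low band; lower panel: log2 ratio of 3' to 5' Gapdh signal on the same arrays. Tumor 4 and tumor 5 lie above their group mean for 15 and 18 of the 21 genes and tumor 3 for 2.

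Many ribosomal protein genes have processed pseudogenes, and the annotation gave 39 further probe sets several symbols of which at least 1 was a ribosomal protein gene; these are outside the rule. Of these 28 lay above the low band. Their median difference was 0.10 in pretumor and 0.12 in tumor against GCP, with 24 and 26 of 28 above 0, beside medians of -0.02 and 0.001 over all 2708 genes. With arrays centred on the median of bright probe sets the medians were 0.10 and 0.077, with 25 and 24 of 28 above 0. Limma called 0 of the 28 in pretumor and 1 in tumor against GCP, a probe set shared by Rpl3, Gm5879 and Gm12816 (100734_at) that stood at 13.08, 13.16 and 13.31 as group means (difference in tumor 0.23, adjusted p = 0.0226). That call ended without any 1 of GCP 2, GCP 4, tumor 1 or tumor 4 (limma adjusted p = 0.0544 to 0.0794), and with GCP pairs averaged. It also ended with median centring, with dim probe sets left out and with the replicate number as a block. Among the 2708 genes limma called 2.81% higher and 4.28% lower in pretumor against GCP, and 3.29% and 4.95% in tumor against GCP. Rpl3 encodes a large subunit protein at the peptide transfer centre.

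Genes that work with the ribosome were read as whole lists, which were chosen with earlier results of these data known. From each list and comparison up to 3 called genes with the largest change were named, or the brightest where none was called. Of 35 translation initiation factors, 25 above the low band, limma called 0 in each comparison, and of 10 elongation and release factors 0. An unadjusted p under 0.05 was reached by 6 initiation factors in pretumor and 6 in tumor samples against GCP and by 4 between the later stages, and by 0, 1 and 4 elongation and release factors. Over all 8251 genes 18.0%, 18.0% and 12.2% reached it in these comparisons, in either direction. Eef1a1, which brings aminoacyl-tRNA to the ribosome, stood at 12.67 ± 0.14, 12.73 ± 0.13 and 12.68 ± 0.14. Eif4a2, an RNA helicase of initiation, stood at 11.06 ± 0.23, 11.61 ± 0.22 and 11.64 ± 0.28 and did not pass (limma adjusted p = 0.0847 and 0.0671 against GCP). Of 17 other genes with TOP messages limma called 0 in each comparison, with 3, 2 and 1 at an unadjusted p under 0.05. Tpt1, the brightest of them, stood at 14.47 ± 0.06, 14.54 ± 0.12 and 14.53 ± 0.10. Fau, whose product includes a small subunit protein, was in the low band.

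Of 48 genes of ribosome assembly and the nucleolus, 27 lay above the low band. Limma called 1 higher in pretumor against GCP, Rrs1, which stood at 9.35 ± 0.15 and 10.24 ± 0.23 (adjusted p = 0.0407). It called 3 higher in tumor against GCP, Rpf2, Tsr1 and Wdr43, by 0.85, 0.69 and 0.57 (limma adjusted p = 0.0456, 0.0353 and 0.00827), and 0 lower in either comparison. All are factors in the making of the subunits. Over all 8251 genes limma called 1.99% higher and 3.25% lower in pretumor against GCP, and 1.70% and 3.93% in tumor against GCP. The medians over the 27 were 0.19 and 0.30, beside 0.11 and 0.034 over the 21 ribosomal protein genes; this difference between lists was not tested. The Wdr43 call held without any 1 array and ended with GCP pairs averaged. Those of Rrs1, Rpf2 and Tsr1 ended without any 1 of 10, 12 and 10 of the 14 arrays, and with GCP pairs averaged. The Rpf2 call also ended with the mean of its probe sets. Of 13 RNA polymerase I genes, Polr1d alone was called, lower in pretumor against GCP (difference -0.49, limma adjusted p = 0.0162). Leaving out GCP 1 or GCP 3, or averaging GCP pairs, ended that call, and with the mean of its probe sets the difference was -0.16.

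Of 12 genes of the mTOR and S6 kinase pathway, which controls TOP messages, Tsc2, a brake on mTOR, rose from 6.06 ± 0.20 to 6.96 ± 0.22 in pretumor (1.87-fold, limma adjusted p = 0.00142) and to 6.65 ± 0.13 in tumor samples (by 0.59, limma adjusted p = 0.015). Both Tsc2 calls held without any 1 array, and the tumor call ended with GCP pairs averaged. With the mean of the Tsc2 probe sets the differences were 0.37 and 0.24, so the probe sets did not give like sizes. Eif4ebp1, which holds back the cap-binding factor, was called higher in tumor against GCP, with 12 of 14 arrays in the low band; that call ended without GCP 2, GCP 3, GCP 4 or tumor 4, and with GCP pairs averaged. Of 10 Myc family genes, Myc, a driver of ribosome genes, was called higher in tumor samples, at 2.05 ± 0.06, 2.42 ± 0.35 and 4.20 ± 0.70, with 12 of 14 arrays in the low band and no call with a floor at 16. The Myc call against GCP held with GCP pairs averaged (limma adjusted p = 0.0362). Beside the counts of both lists, limma called 1.99% of all 8251 genes higher in pretumor and 1.70% in tumor against GCP.

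Mitochondrial ribosomal proteins, which serve the separate ribosome of that organelle, are a second set of ribosomal subunit genes. Of 61, 46 of them above the low band, 2 were lower and 0 higher in each comparison with GCP. Over all 8251 genes limma called 3.25% lower in pretumor and 3.93% in tumor against GCP, so these counts are near the background. The differences from GCP were -0.24 and -0.25 for Mrpl11 in pretumor and tumor samples (limma adjusted p = 0.0494 and 0.039), -0.65 for Mrps22 in pretumor (limma adjusted p = 0.0189) and -0.56 for Mrps26 in tumor samples (limma adjusted p = 0.0199). The medians over the 46 were -0.17 and -0.11, beside 0.11 and 0.034 over the 21 cytosolic genes above the low band. The 0.034 turned to -0.006 when arrays were centred on the median of bright probe sets, so its side of 0 is not read. The difference between these lists was not tested. In tumor against pretumor limma called 1 of the 61, Mrps22, higher by 0.67 (adjusted p = 0.0333), beside 0.133% of all genes. Each of these mitochondrial calls ended without at least 1 GCP array and with GCP pairs averaged, the Mrps22 call in pretumor without GCP 3 or GCP 4 and the Mrps26 call without either of the same arrays.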

How the data were processed

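RNA of 14 samples was measured on 1 array each. The authors deposited 1 linear intensity per probe set and array, and the sources used here do not say how probes were summarised or scaled. Array medians lay close together, so no further normalization was applied. The 66 control probe sets were set aside. Intensities below 2.45, the 10th percentile over all arrays, were set to it before taking log2. Below 16 lay 70.5% of values. Limma 3.58.1 in R 4.3.3 was fitted to 12422 probe sets with 3 group means (11 residual and 0.83 prior degrees of freedom), two-sided, with Benjamini-Hochberg adjustment over all probe sets. Intervals are 95% from the moderated fit and, with 4 or 5 arrays a group, the number of arrays limits precision.

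Gene symbols are those of the platform annotation, where 10833 probe sets had 1 symbol. Members and lists were chosen with earlier results of these data known. Every member could be named, with full values for called members, the largest changes by subunit, paralogs and members whose probe sets disagreed; of each list up to 3 called genes, or the brightest where none was called. On simulated data for tumor against GCP (12422 probe sets) 61 of 100 probe sets raised by 1 log2 unit and 90 of 100 raised by 2 were recovered, with 7 false calls. The simulated noise was independent between arrays, while the real GCP arrays were more alike within pairs. These counts therefore do not give the error rate of the real calls against GCP. Alternatives covered the floor, pseudocount, scaling, dim filter, variance model, groups fitted, replicate block, probe set choice and left-out arrays.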

Additional observations from a re-analysis of the deposited data

Results flagged for a closer look

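In 111 groups of 4 or 5 arrays, 3 held an array far from the others, and chance flags about 1 in 20 groups; none was a ribosomal protein gene. Tsc2 was 6.42 on tumor 3 against 6.67 to 6.75 on the other tumor arrays. Wdr43 was 5.15 on tumor 1 against 4.76 to 4.87. Eif4ebp1 was 2.12 on GCP 2 against 2.64 to 2.74, within the low band.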

How the results depend on the processing

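Over 27 alternatives, the counts of ribosomal protein genes called between tumor and pretumor stayed at 0, and leaving out any 1 array kept every count at its value: 1 higher and 1 lower in each comparison with GCP. The Rpl13a difference ran from 0.74 to 0.95 in pretumor and from 0.89 to 1.10 in tumor samples against GCP, with limma adjusted p from 0.00409 to 0.0878 and from 0.00105 to 0.0407. With the replicate number as a block the count called higher in pretumor was 0 (Rpl13a adjusted p = 0.0688), and with GCP pairs averaged, added after seeing the data, it was also 0. Whether the numbers pair the samples cannot be told from 4 or 5 same-numbered pairs per comparison. Same-numbered arrays correlated from -0.294 to 0.551 between GCP and pretumor (mean 0.256, against -0.0625 for other pairs). Between GCP and tumor the range was -0.352 to -0.0219 (mean -0.227, against 0.0573). Between pretumor and tumor it was -0.359 to 0.219 (mean -0.0531, against 0.0213). In these comparisons 2 of 4, 0 of 4 and 1 of 5 arrays correlated best with their own number. With probe set IDs without suffix alone, 30 genes were left, 2 were called higher (Rpl10a joining Rpl13a) and 0 lower in each comparison with GCP, and Rps4l, then read by 98148_at, reversed to 0.10 and 0.16. With dim probe sets left out, or a floor at 16, the counts called lower were 0 in both, since Rps4l lies in the low band. Without pretumor 3 and tumor 2 together no count of ribosomal protein genes changed. The 14 genes in the low band could not show a change of usable size.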
